A study of Mus musculus with 6 samples.

Results

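The genes described here code for 5 families of enzymes that remove reactive and foreign chemicals: glutathione transferases, aldo-keto reductases, aldehyde dehydrogenases, carbonyl reductases and the Ugt1a glucuronosyltransferases. They were chosen by gene symbol among the protein-coding rows of the count table (symbols beginning Gsta, Gstk, Gstm, Gsto, Gstp, Gstt, Gstz, Mgst, Akr1a to Akr1e, Akr7a, Aldh, Cbr or Ugt1a). The rule found 74 genes of 22002 protein-coding rows and 41795 features in all, comprising 24 glutathione transferases, 17 aldo-keto reductases, 21 aldehyde dehydrogenases, 4 carbonyl reductases and 8 Ugt1a genes. One further symbol of this form, Gstm2-ps1, is a pseudogene by its name, is not listed as protein coding and was left out.

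The sequenced RNA came from mammary tumour cells of mice, which the labels call activated cancer stem cells (activated, 3 libraries) and quiescent cancer stem cells (quiescent, 3 libraries). The strain of both groups is given as FVB/N-Tg(MMTV-PyVT)634Mul/J, in which the promoter of mouse mammary tumour virus, active mainly in mammary epithelium, drives the middle T antigen of polyoma virus so that tumours arise in the mammary gland. No age, sorting gate or means of activation is given in the labels, and no other allele or agent is named for either group. Whether replicate libraries were taken from separate animals or cultures is not stated, so each p-value reflects the spread among these 6 libraries alone, and that spread may be technical. The series title names SETD4 as a marker of quiescent cancer stem cells that resist chemoradiotherapy.

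Glutathione transferases join the thiol of glutathione to electrophiles, including lipid peroxidation products and alkylating drugs. Aldo-keto reductases and carbonyl reductases reduce aldehydes, ketones, quinones and steroids with NADPH, and aldehyde dehydrogenases oxidise aldehydes to acids with NAD or NADP. Ugt1a enzymes attach glucuronic acid. Many of these genes are known targets of NRF2, the transcription factor that KEAP1 holds back until oxidants or electrophiles arrive, and several also of the aryl hydrocarbon receptor (AHR). Aldehyde dehydrogenase activity, mainly of the Aldh1a group, is widely used to sort stem-like cells from mammary tumours.

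The bases before the start sites of 5 genes are shown because these genes had large differences between the states: Gsta1, Gsta2 and Gsta3, which fell together, Akr1c18, which also fell, and Cbr2, which rose. They are not all the genes with large differences. Gsta4 and Aldh3a1, which also fell strongly, had no matched sequence. Cbr3, Gstt1, Aldh1l1 and Gsto2, with log2 changes of at least 1 in either direction, are not shown. Each run is the 250 bases before a RefSeq start site on GRCm38.p6, read 5′ to 3′ on the gene's strand, and capitals mark a match to either of the motifs searched.
Gsta1, chr9:78230419-78230668, plus strand: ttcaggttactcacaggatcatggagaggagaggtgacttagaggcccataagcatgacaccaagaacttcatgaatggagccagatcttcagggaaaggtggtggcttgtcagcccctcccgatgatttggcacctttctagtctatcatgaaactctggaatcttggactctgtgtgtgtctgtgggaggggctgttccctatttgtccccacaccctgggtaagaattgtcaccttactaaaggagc
Gsta2, chr9:78347146-78347395, minus strand: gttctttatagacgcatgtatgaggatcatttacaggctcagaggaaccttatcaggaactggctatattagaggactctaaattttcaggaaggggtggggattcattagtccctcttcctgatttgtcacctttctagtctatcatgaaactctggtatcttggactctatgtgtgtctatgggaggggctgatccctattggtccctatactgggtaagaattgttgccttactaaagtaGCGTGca
Gsta3, chr1:21240335-21240584, plus strand: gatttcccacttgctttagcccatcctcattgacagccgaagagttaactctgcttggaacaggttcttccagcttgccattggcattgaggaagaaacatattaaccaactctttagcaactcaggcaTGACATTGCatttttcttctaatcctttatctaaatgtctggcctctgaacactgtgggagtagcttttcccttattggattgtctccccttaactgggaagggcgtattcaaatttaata
Akr1c18, chr13:4150647-4150896, minus strand: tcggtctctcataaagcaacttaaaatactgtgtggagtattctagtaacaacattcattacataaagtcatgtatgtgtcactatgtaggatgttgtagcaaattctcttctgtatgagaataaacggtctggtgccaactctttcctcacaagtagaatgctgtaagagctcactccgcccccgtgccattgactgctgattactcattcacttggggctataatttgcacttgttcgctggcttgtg
Cbr2, chr11:120732022-120732271, minus strand: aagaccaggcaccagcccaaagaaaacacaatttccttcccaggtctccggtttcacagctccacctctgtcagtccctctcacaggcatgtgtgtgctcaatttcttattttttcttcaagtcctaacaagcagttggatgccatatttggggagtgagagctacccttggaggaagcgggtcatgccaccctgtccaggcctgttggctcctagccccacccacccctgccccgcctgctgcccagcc
The motifs searched on both strands were TGACNNNGC, the core of the antioxidant response element to which NRF2 binds with a small MAF protein, and GCGTG, the core of the element bound by AHR. Gsta3 held the first at position -121 from the start and Gsta2 the second at position -7, while the Gsta1, Akr1c18 and Cbr2 windows held neither. In the count file Gsta2 begins at 78347192, inside its window, so the match at position -7 lies within the gene as counted. The Akr1c18 and Cbr2 windows overlap their genes there by a few bases. In an alignment the Gsta1 and Gsta2 windows were identical at 71.4% of positions (190 of 266 aligned columns), and the other pairs among the 5 windows at 44.9 to 54.8%. RefSeq windows were matched by gene identifier for 63 of the 74 genes. Those without a window included Gsta4, Aldh3a1, Aldh1a3 and Aldh2, so the counts below leave them out. TGACNNNGC stood in 10.2% of all 32851 windows and before 14.1% of the 11353 tested genes that had a window. It stood before 1 of 11 members that rose (Gstm7), 1 of 15 that fell (Gsta3) and 3 of 17 that did not pass the test. GCGTG stood in 28.2% of all windows and before 48.4% of the tested genes, and before 0 of 11 members that rose, 5 of 15 that fell and 6 of 17 that did not pass. A match describes letters in the window, not a bound site.

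Library totals ran from 17842568 to 20510377 counts in activated cells and from 17785331 to 19145576 in quiescent cells. Activated replicate 1 stood apart within its state: counts differed from those of the other activated libraries by 5.53 and 6.04 times the variance that counting alone gives, against 1.98 to 3.33 times for the other pairs, so calls that depend on it are given with and without it. All 16 mammary epithelial markers had counts, and their summed level was 9147 ± 91.6 CPM (counts scaled to a common library total after TMM normalisation) in activated and 10660 ± 239 CPM in quiescent cells (SD, n = 3 each, as for every ± value below). These markers moved both ways, with 5 higher (Krt19 and Elf5 most), 8 lower (Cldn4 and Wfdc2 most) and 3 not past the test. Markers of fibroblasts were higher in activated libraries (14 of 15 tested higher, none lower, Pdgfra not past the test, with a summed level of 2063 to 2202 CPM in activated and 1134 to 1161 CPM in quiescent cells). Of 15 tested myeloid markers 8 were higher and 1 lower, at a summed 1199 to 1214 CPM in activated and 815 to 872 CPM in quiescent cells. Most of this sum was Cd14 (702 CPM in activated and 441 CPM in quiescent cells) and Lyz2 (260 and 206 CPM). Ptprc, Adgre1, C1qa, C1qb, C1qc and Fcer1g did not pass the test, and Aif1 was near 0. Across all genes tested 24.1% were higher and 23.4% lower. Endothelial markers summed to 7.56 ± 1.17 CPM in activated and 7.66 ± 1.29 CPM in quiescent cells. Lymphocyte markers summed to 0.921 ± 0.0374 CPM in activated and 1.04 ± 0.353 CPM in quiescent cells, and Cd3g, Cd79b, Nkg7, Gzmb, Cldn5 and Lep were at 0 in every library. Adipocyte markers summed to 138 ± 3.44 CPM in activated and 116 ± 2.37 CPM in quiescent cells, nearly all of it Lpl, while Adipoq, Plin1, Cidec and Retn had no count in activated cells and averaged under 0.1 CPM in quiescent cells. The part of these other cell types in the results below was not tested. In bulk samples fewer cells of a type and less RNA per cell cannot be told apart.

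The 74 genes together took a smaller share of the RNA in activated cells. Their counts were 0.333, 0.337 and 0.338% of the library total in activated replicates 1, 2 and 3, and 0.405, 0.406 and 0.423% in the quiescent replicates, with no overlap. Summed, this was 3362 ± 31.01 CPM in activated and 4125 ± 115 CPM in quiescent cells. The sum weights each gene by its level, so a few abundant genes set it. Of the 74 genes, 51 passed the filter on low counts and were tested (edgeR's quasi-likelihood test, p adjusted over all 15223 genes tested, threshold 0.05). Of these, 11 rose in activated cells, 20 fell and 20 did not pass the test. Across all genes tested 24.1% rose and 23.4% fell, 47.5% in all, so the share of members that rose, 21.6%, was close to the background and the share that fell, 39.2%, was above it. Among protein-coding genes tested the background was 25.6% higher and 24.8% lower. The 3 activated and 3 quiescent values did not overlap for 12 of the 51 tested members with higher activated values and 22 of the 51 with lower ones, against a background of 27.9% and 28.0% of genes. The median log2 fold change of the 51 was -0.13, and that of all genes tested was 0.00. At a log2 change of at least 1, 3 members rose, against a background of 5.94%, and 8 fell, against a background of 3.39%. Gsta1 and Gsta2, counted among the 8, the 20 that fell and the 22 with lower values, passed the filter only through their quiescent libraries. They were therefore favoured to be called lower. Without activated replicate 1, 12 of 52 tested members rose and 24 fell. In that fit 3787 of all 15578 genes tested rose and 3572 fell.

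**Figure D1:**
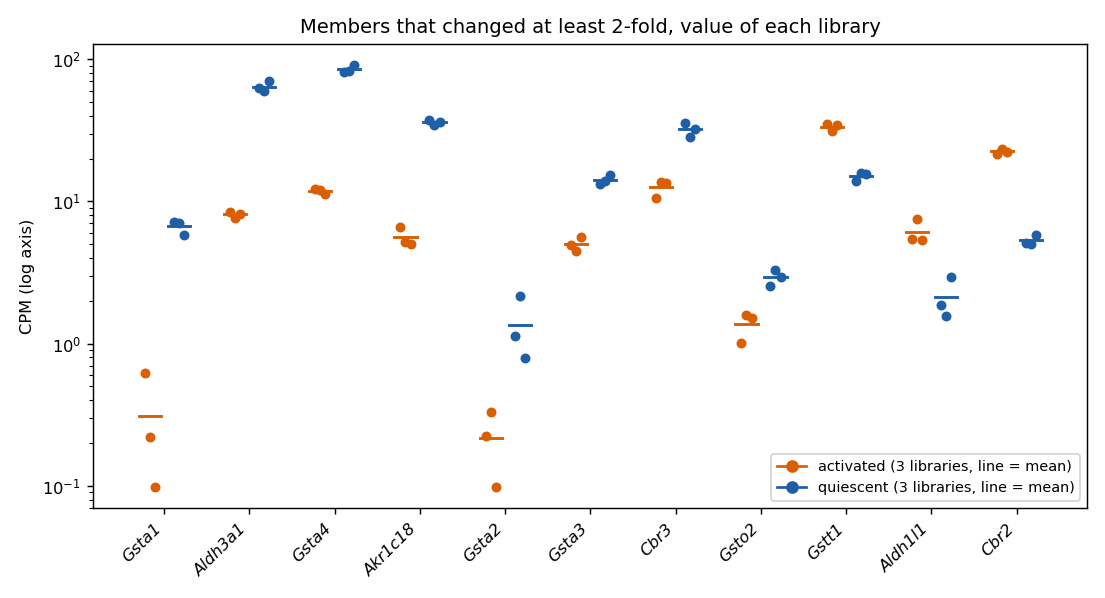
Level of each member that passed the test with a log2 change of at least 1, in CPM on a log axis, as points for the 3 activated libraries (orange, left) and the 3 quiescent libraries (blue, right), with a line at the mean. Of these 11 genes 8 were lower in activated cells, and Gstt1, Aldh1l1 and Cbr2 were higher. The points of the states do not overlap for any of them, which the choice by the test favours. Of all genes tested, 27.9% had higher and 28.0% had lower activated values without overlap. Gsta1 and Gsta2, among the 8, passed the filter on low counts only through their quiescent libraries.

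The remaining 23 members were too low to test. Of these, 10 had no count in any library: Gstm3, Akr1c6, Akr1c20, Akr1cl, Akr1d1, Aldh3b3, Ugt1a1, Ugt1a2, Ugt1a9 and Ugt1a10. A count of 0 allows a level of up to 3 counts in a library of this depth. The other 13 (Gstm6, Gstp2, Gstt4, Akr1b7, Akr1c12, Akr1c14, Akr1c19, Akr1c21, Aldh1a2, Aldh3b2, Aldh8a1, Ugt1a5 and Ugt1a6b) reached at most 33 counts in a library.

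Among glutathione transferases, the alpha class fell and the theta class did not. Gsta3 and Gsta4 fell in activated cells, as did Gsta1 and Gsta2, which passed the filter on low counts only through their quiescent libraries and so were favoured to be called lower. The summed level of the 4 was 17.3 ± 0.552 CPM in activated and 107 ± 5.23 CPM in quiescent cells, most of it from Gsta4. Both omega genes fell, to a summed 247 ± 10.4 CPM in activated cells, against 471 ± 9.36 CPM in quiescent cells. The kappa gene, the zeta gene, 2 of 3 tested theta genes and 1 of 5 tested mu genes rose, and the pi gene and the 3 microsomal genes did not pass the test. Of the microsomal genes, Mgst2 lay close to the threshold (log2 change -0.47, adjusted p = 0.0511) and passed as lower without activated replicate 1 (0.0425) or quiescent replicate 3 (0.0201), among protein-coding genes alone (0.0458) and without genes of unstable counts (0.0435). Over the family of 20 tested genes, 5 rose, 6 fell and 9 were not past the threshold, with a median log2 change of -0.06. The 5 of 20 higher and 6 of 20 lower were near the background of 24.1% and 23.4% of all genes. The summed level was 1008 ± 21.4 CPM in activated and 1307 ± 38.6 CPM in quiescent cells. Without activated replicate 1 the family had 4 higher and 10 lower calls among 21 tested, while 3787 and 3572 of all 15578 genes were called. Gstm1, Mgst1 and Mgst2 then gained a lower call and Gstz1 lost its higher one. The remaining added lower call was of a gene too low to test with all libraries.

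Gsta4, whose enzyme conjugates hydroxynonenal, a product of lipid peroxidation, carried most of the alpha class. It had 12.2, 12.0 and 11.2 CPM in activated libraries and 80.8, 83.0 and 90.8 CPM in quiescent libraries. The states were far apart and each was tight, and the log2 change was -2.85 (SE 0.07, adjusted p = 2.33e-15), a level 7.20 times as high in quiescent cells. Gsta3 is known in mouse for detoxifying aflatoxin epoxide. It had 4.93, 4.49 and 5.62 CPM in activated and 13.3, 14.0 and 15.2 CPM in quiescent libraries (log2 change -1.50, SE 0.12, adjusted p = 1.64e-08). It lies on chromosome 1, apart from the other 3 alpha genes on chromosome 9. None of the 31-base words of the longest Gsta4 transcript, and 3.58% of those of Gsta3, occurred in transcripts of another gene (GENCODE M21).

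Gsta1 and Gsta2 were lower in abundance and shared sequence. Gsta1 had 11, 4 and 2 counts in activated and 127, 131 and 111 counts in quiescent libraries (log2 change -4.44, SE 0.36, adjusted p = 9.94e-07). Gsta2 had 4, 6 and 2 counts in activated and 20, 40 and 15 counts in quiescent libraries (log2 change -2.64, SE 0.50, adjusted p = 3.97e-04). Of the 31-base words of Gsta1, 92.2% occurred in transcripts of other genes, and of Gsta2 75.6%, so the split of reads between these copies is uncertain. The start-site windows of the pair, printed above, are also alike. The closest match of each was a neighbouring gene that the file names only as predicted, Gm3776 for Gsta1 and Gm10639 for Gsta2, chosen for mention after their values were seen. Gm3776 had 2, 0 and 0 counts in activated and 77, 53 and 63 in quiescent libraries, and Gm10639 had 0, 0 and 1 counts in activated and 7, 8 and 7 in quiescent libraries. Added together, which does not depend on the split among them, the 4 genes had 17, 10 and 5 counts in activated and 231, 232 and 196 counts in quiescent libraries, or 0.581 ± 0.355 CPM in activated and 11.9 ± 1.45 CPM in quiescent cells.

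Gsto1 codes for an omega transferase that reduces dehydroascorbate and removes glutathione from proteins. It had 234, 252 and 250.5 CPM in activated and 471, 458 and 476 CPM in quiescent libraries, a log2 change of -0.93 (SE 0.04, adjusted p = 5.01e-12). Its neighbour Gsto2, of the same class, had 1.01, 1.59 and 1.51 CPM in activated and 2.53, 3.30 and 2.94 CPM in quiescent libraries (log2 change -1.09, SE 0.23, adjusted p = 9.07e-04). Neither shared a 31-base word with another gene.

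Gstt1, a theta transferase that acts on small halogenated molecules, was the glutathione transferase that rose most. It had 35.0, 31.05 and 34.5 CPM in activated and 13.9, 15.8 and 15.6 CPM in quiescent libraries (log2 change 1.15, SE 0.08, adjusted p = 3.69e-09). Its neighbour Gstt3 was more abundant and moved little, at 134, 147 and 143 CPM in activated and 127, 129 and 126 CPM in quiescent libraries (log2 change 0.15, SE 0.04, adjusted p = 0.00749), and its call was lost without activated replicate 2 (adjusted p = 0.0545). Gstk1, a transferase of mitochondria and peroxisomes, had 12.5, 13.1 and 10.5 CPM in activated and 5.91, 5.90 and 9.20 CPM in quiescent libraries (log2 change 0.78, SE 0.17, adjusted p = 0.00227). Gstz1, an isomerase of tyrosine breakdown, had 22.3, 19.9 and 19.8 CPM in activated and 17.2, 17.8 and 17.2 CPM in quiescent libraries. Its log2 change was 0.25 (SE 0.08, adjusted p = 0.0182), and the call was lost with DESeq2 (0.0795) and without activated replicate 1 (0.0649), quiescent replicate 1 (0.0533) or quiescent replicate 3 (0.0532).

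Of the mu class, Gstm7 rose, with 3.36, 3.34 and 2.15 CPM in activated and 1.74, 1.25 and 1.47 CPM in quiescent libraries (log2 change 0.98, SE 0.24, adjusted p = 0.00262). It was named after its value was seen, as the mu gene that passed. Gstm1, the most abundant mu gene per length, had 47.4, 40.5 and 41.2 CPM in activated and 46.7, 44.0 and 47.5 CPM in quiescent libraries (log2 change -0.10, SE 0.06, adjusted p = 0.224). It passed as lower without activated replicate 1 (log2 change -0.17, adjusted p = 0.0165). Of its 31-base words 34.3% occurred in other genes, mainly in the pseudogene Gstm2-ps1.

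Mgst1, a membrane-bound transferase that also reduces lipid peroxides, had 431, 369 and 359 CPM in activated and 387, 392 and 406.5 CPM in quiescent libraries. The states overlapped (log2 change -0.03, SE 0.06, adjusted p = 0.708), and the high value was that of activated replicate 1. Without that library the log2 change was -0.11 and passed the test (adjusted p = 0.00754), and without activated replicate 2 or 3 it was 0.00 or 0.02 and did not. Gstp1, the pi transferase found in many tumours, was unstable within both states, with 7.73, 47.3 and 28.1 CPM in activated and 22.3, 54.3 and 54.2 CPM in quiescent libraries. Its log2 change of -0.65 had an SE of 0.76 (adjusted p = 0.545), and 67.5% of its 31-base words occurred in Gstp2, so these libraries do not settle its direction.

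**Figure D2:**
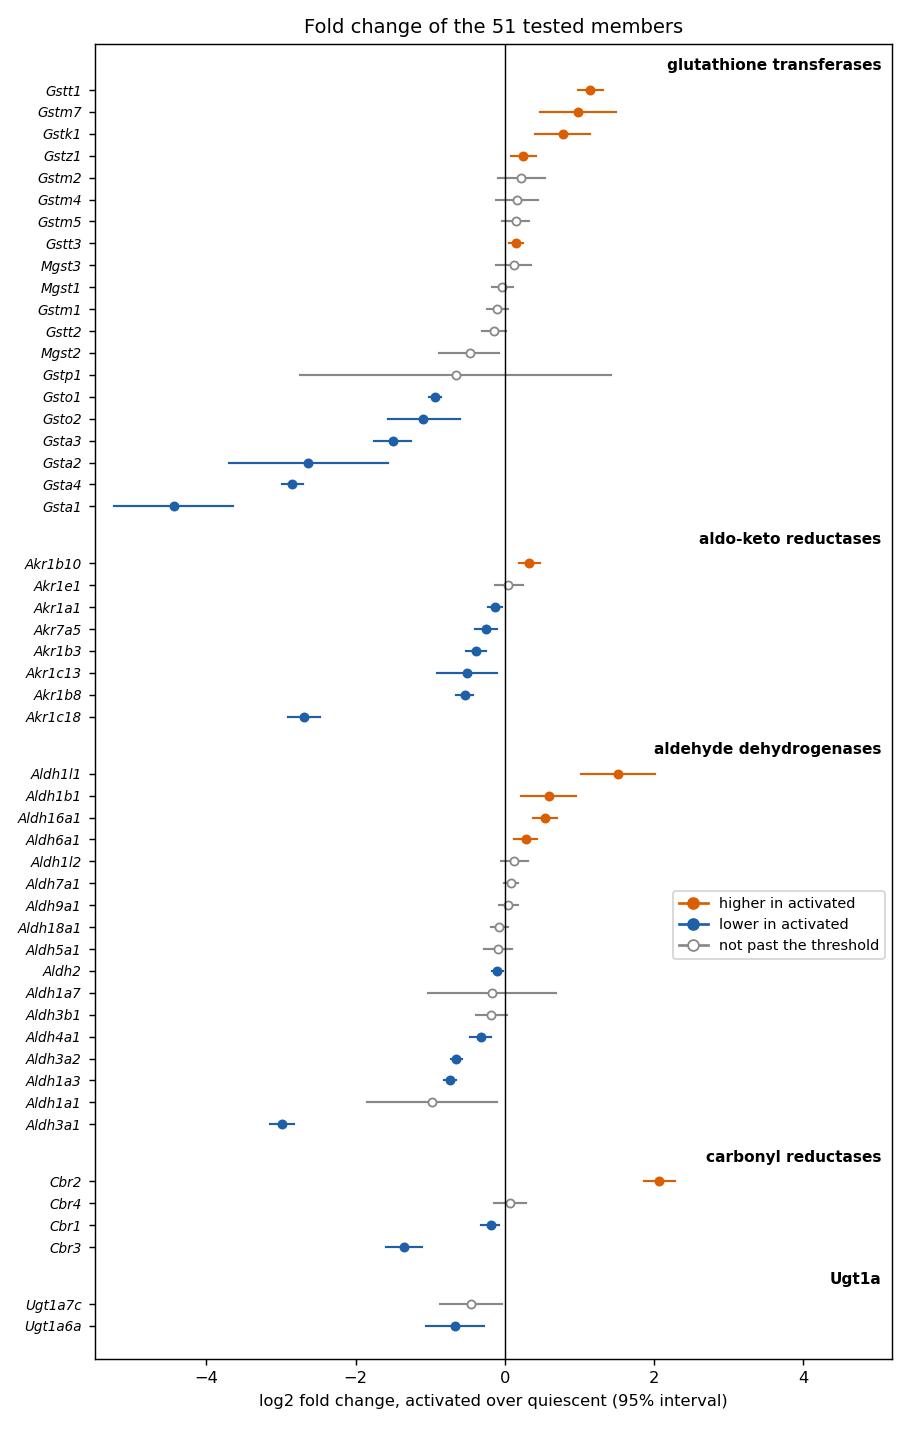
Log2 fold change, activated over quiescent, of the 51 tested members by family, with 95% intervals from the fit; filled points passed the test (orange higher in activated, blue lower) and open points did not. Changes run from -4.44 for Gsta1 to 2.07 for Cbr2, and the 4 Gsta genes lie furthest to the left among glutathione transferases.

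Of 8 tested aldo-keto reductases, 6 had lower levels that passed the test, 1 rose and 1 was not past the threshold (median -0.32). This is 12.5% higher and 75.0% lower, against 24.1% and 23.4% of all genes, over few genes. Without quiescent replicate 3 the family had 4 lower calls, while 3194 of all 15560 genes tested were lower. The summed level was 896 ± 30.99 CPM in activated and 1041 ± 41.4 CPM in quiescent cells. Akr1c18, which in mouse inactivates progesterone, changed most. It had 6.61, 5.15 and 5.03 CPM in activated and 37.4, 34.4 and 36.3 CPM in quiescent libraries (log2 change -2.69, SE 0.10, adjusted p = 1.18e-12). Of its 31-base words 4.27% occurred in other genes. The level in quiescent cells was 6.44 times that in activated cells.

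Akr1a1, an aldehyde reductase that also makes a precursor of vitamin C in mice, held most of the family's RNA. It had 641, 683 and 689 CPM in activated and 718, 715 and 778 CPM in quiescent libraries. The states did not overlap, but the difference was small (log2 change -0.13, SE 0.04, adjusted p = 0.0171), and the call was lost without quiescent replicate 3 (adjusted p = 0.0957). Akr7a5, a reductase of succinic semialdehyde, had 37.6, 46.1 and 45.2 CPM in activated and 53.1, 49.6 and 50.6 CPM in quiescent libraries (log2 change -0.25, SE 0.07, adjusted p = 0.00826). The other 4 that passed were within a log2 change of 0.60 and were named after their values were seen. Akr1b3, aldose reductase of the polyol pathway, and Akr1b8 fell, with log2 changes of -0.38 (adjusted p = 9.99e-05) and -0.53 (adjusted p = 4.68e-07). Akr1c13 had a log2 change of -0.50 (adjusted p = 0.0403), and 39.2% of its words were shared with Akr1c12. Its call was lost with DESeq2 (0.136) and limma-voom (0.0532), and without activated replicate 2 (log2 change -0.34, 0.184), activated replicate 3 (0.0743), quiescent replicate 1 (0.126) or quiescent replicate 3 (0.127). Akr1b10, next to Akr1b8, rose (log2 change 0.33, adjusted p = 8.30e-04).

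Among aldehyde dehydrogenases 4 of 17 tested genes rose, 5 fell and 8 did not pass (median -0.09). The shares of 23.5% higher and 29.4% lower were near the background of 24.1% and 23.4%. Without activated replicate 1 the family had 6 higher calls, as Aldh7a1 (log2 change 0.14, adjusted p = 0.00823, against 0.09 and 0.124 with all libraries) and Aldh9a1 (0.12 and 0.0463, against 0.05 and 0.538) then passed. In that fit 3787 of all 15578 genes tested were higher. The summed level was 1345 ± 17.7 CPM in activated and 1651 ± 34.1 CPM in quiescent cells. Aldh3a1, which oxidises aromatic and lipid-derived aldehydes and is abundant in the cornea, had 8.40, 7.67 and 8.21 CPM in activated and 62.3, 59.5 and 70.0 CPM in quiescent libraries. Its log2 change was -2.98 (SE 0.08, adjusted p = 8.47e-15), a level 7.91 times as high in quiescent cells. Its neighbour Aldh3a2, the fatty aldehyde dehydrogenase, named after its value was seen, had 208, 200.4 and 202.5 CPM in activated and 315, 316 and 326 CPM in quiescent libraries (log2 change -0.65, SE 0.04, adjusted p = 2.00e-10).

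The Aldh1a genes, a group that includes enzymes making retinoic acid from retinal, differed widely in level. Aldh1a3 was by far the most abundant of the 4, at 52.1 CPM per kb of gene length in activated and 86.3 in quiescent cells, while Aldh1a1, Aldh1a2 and Aldh1a7 were each under 1. Aldh1a3 had 176, 173 and 182 CPM in activated and 289.6, 291 and 300.0 CPM in quiescent libraries. The states did not overlap, and the log2 change was -0.73 (SE 0.04, adjusted p = 5.43e-11). Aldh1a1, which gives much of the enzyme activity in many stem cell sorts, had 6, 10 and 19 counts in activated and 33, 14 and 20 counts in quiescent libraries, which overlapped. Its log2 change was -0.98 (SE 0.41, adjusted p = 0.0622). It passed with no filter on low counts (0.0234), without activated replicate 3 (log2 change -1.44, 0.0198) and without quiescent replicate 2 (log2 change -1.23, 0.0333). Aldh1a7, a rodent gene close to Aldh1a1, had 11, 15 and 13 counts in activated and 8, 11 and 24 counts in quiescent libraries (log2 change -0.17, SE 0.41, adjusted p = 0.769). Aldh1a2 had 11, 6 and 7 counts in activated and 8, 6 and 10 counts in quiescent libraries and was too low to test.

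Aldh2, the mitochondrial acetaldehyde dehydrogenase, was the most abundant member of its family per length. It had 543, 535 and 551 CPM in activated and 570.0, 577 and 595 CPM in quiescent libraries (log2 change -0.10, SE 0.04, adjusted p = 0.0399). The values did not overlap, but the call was lost under upper-quartile scaling (0.0849), with no filter on low counts (0.066) and without any one library except activated replicate 1 (0.057 to 0.15). Of the genes that rose, Aldh1l1, which oxidises formyltetrahydrofolate, changed most, with 5.43, 7.56 and 5.37 CPM in activated and 1.86, 1.57 and 2.94 CPM in quiescent libraries (log2 change 1.52, SE 0.23, adjusted p = 6.07e-05). The other 3 that rose had log2 changes of 0.28 to 0.59, the highest being that of Aldh1b1, whose call was lost with DESeq2 (adjusted p = 0.075).

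The carbonyl reductases moved in opposite directions. Cbr2, a mitochondrial carbonyl reductase known from mouse lung, had 21.7, 23.4 and 22.3 CPM in activated and 5.12, 5.03 and 5.83 CPM in quiescent libraries (log2 change 2.07, SE 0.10, adjusted p = 2.14e-11). It was 4.22 times as high in activated cells, and 18.3% of its 31-base words occurred in another gene. Cbr3, a cytosolic reductase, had 10.5, 13.7 and 13.4 CPM in activated and 35.8, 28.1 and 32.4 CPM in quiescent libraries (log2 change -1.35, SE 0.11, adjusted p = 3.32e-07). Cbr1, the most abundant of the 4 and a reducer of quinones and anthracyclines, had 59.8, 57.5 and 54.9 CPM in activated and 66.2, 60.4 and 70.4 CPM in quiescent libraries. Its log2 change was -0.19 (SE 0.06, adjusted p = 0.0136), and the call was lost without activated replicate 3 (0.0679) or quiescent replicate 3 (0.0839). The fourth, Cbr4, did not pass (log2 change 0.07, adjusted p = 0.592). The summed level of the 4 was 106 ± 2.05 CPM in activated and 116 ± 7.65 CPM in quiescent cells, and the libraries of the states overlapped.

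Of the 8 Ugt1a genes 2 were high enough to test. They overlap on one strand of chromosome 1 and share exons, so their counts cannot be told apart with certainty. Ugt1a7c had 49, 85 and 80 counts in activated and 107, 98 and 79 counts in quiescent libraries (log2 change -0.45, SE 0.20, adjusted p = 0.0744). It passed with no filter on low counts (0.045), without activated replicate 2 (log2 change -0.62, 0.0326) and without quiescent replicate 3 (log2 change -0.59, 0.0373). Ugt1a6a had 52, 53 and 79 counts in activated and 81, 86 and 117 counts in quiescent libraries (log2 change -0.66, SE 0.18, adjusted p = 0.00596).

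Per length, a few genes held most of each family's RNA. In activated cells Akr1a1 was at 475 CPM per kb of gene length, Mgst1 at 313, Gsto1 at 208 and Aldh2 at 131. In quiescent cells Akr1a1 was at 521, Gsto1 at 397, Mgst1 at 320 and Aldh2 at 140, so that Mgst1 and Gsto1 stood in the other order. Mgst1 was 40.2% of the summed level per length of the glutathione transferases in activated cells and 30.5% in quiescent cells, and Gsto1 26.8% in activated and 37.8% in quiescent cells. Gsta4 stood at 12.3 CPM per kb in activated and 88.6 in quiescent cells. Akr1a1 held 75.2% of the aldo-keto reductase sum in activated and 70.6% in quiescent cells, and Aldh2 39.6% of the aldehyde dehydrogenase sum in activated and 33.9% in quiescent cells. Second to Cbr1 among carbonyl reductases was Cbr2 in activated cells, with 22.4%, and Cbr3 in quiescent cells, with 26.2%.

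**Figure D3:**
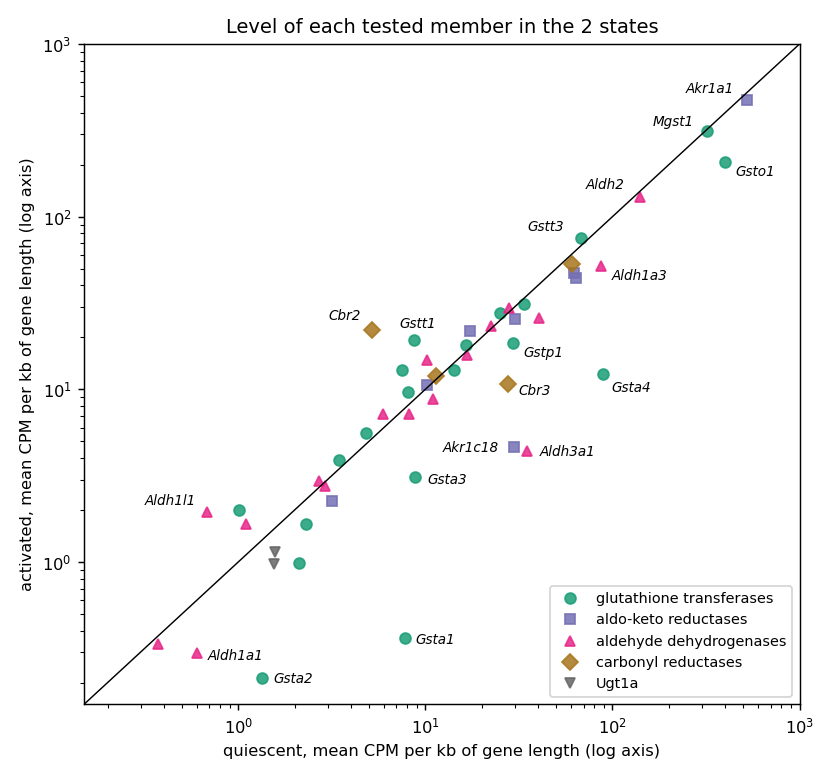
Mean level of each tested member in activated cells (vertical) against quiescent cells (horizontal), both in CPM per kb of gene length on log axes, with symbols by family and a line of equality. Akr1a1, Mgst1 and Gsto1 are at the top right, Gsta1, Gsta4, Aldh3a1 and Akr1c18 lie furthest below the line, and Cbr2 furthest above it.

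Many of the genes stand beside relatives, and 12 runs of members lie within 200 kb of the next member. In 4 of these runs every member was tested and fell, though Gsta1 and Gsta2 were tested only through their quiescent counts. They were Gsta4, Gsta1 and Gsta2 on chromosome 9 (78191966 to 78347192 on GRCm38, as all gene positions here), Gsto1 and Gsto2 on chromosome 19 (47854973 to 47886305), Aldh3a1 and Aldh3a2 on chromosome 11 (61208510 to 61267523), and Cbr1 and Cbr3 on chromosome 16 (93607837 to 93690991). In other runs neighbours differed, as with Akr1b10, which rose, beside Akr1b3 and Akr1b8, which fell, on chromosome 6. On chromosome 10 Gstt1 and Gstt3 rose and Gstt2 did not pass (log2 change -0.14, adjusted p = 0.136). Neighbours can share reads and origins, and whether members of a run moved alike more often than other neighbours was not tested.

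Cbr1 lies close to Setd4, the gene named in the series title, and Cbr3 lies farther off, 78449 bases beyond Setd4. Setd4 lies at 93583457 to 93604770 on the minus strand of chromosome 16, and Cbr1 begins 3067 bases beyond it on the plus strand. Setd4 had 10.1, 9.58 and 9.43 CPM in activated and 8.89, 10.2 and 9.56 CPM in quiescent libraries, which overlapped (log2 change 0.03, SE 0.11, 95% interval -0.20 to 0.25, adjusted p = 0.867). Setd4 is not one of the 74 genes and was added for its position.

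**Figure D4:**
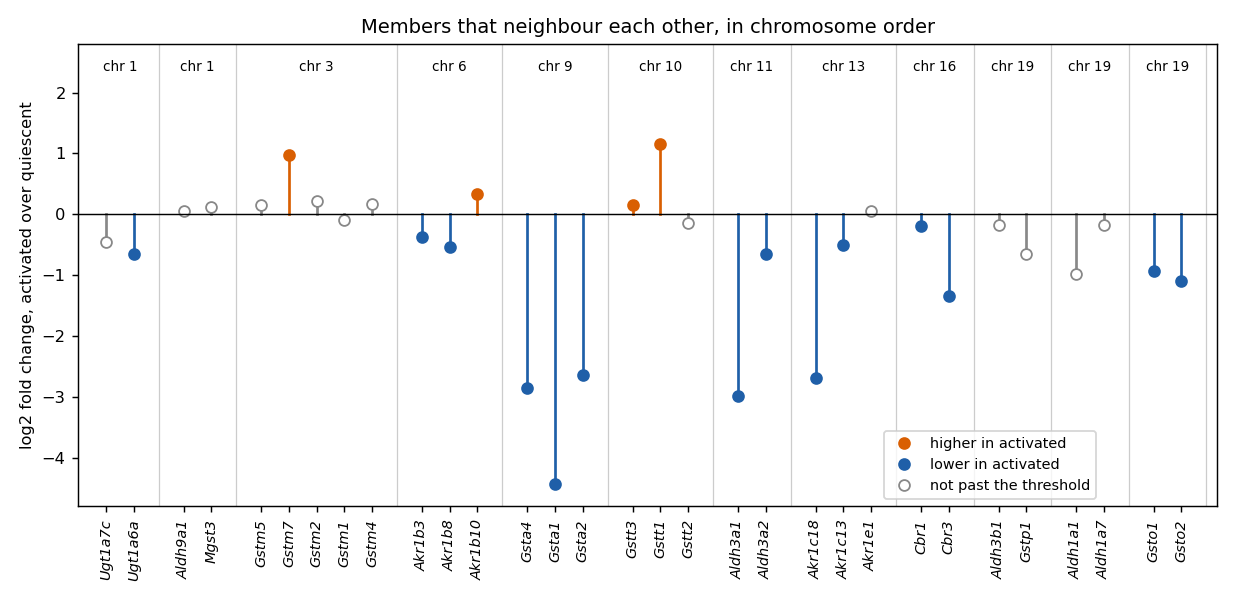
Log2 fold change, activated over quiescent, of the tested members in the 12 runs of neighbouring members, in chromosome order within each run; orange points rose, blue points fell and open points did not pass the test. All points lie below 0 in the runs on chromosomes 9, 11 and 16, in every run on chromosome 19 and in the Ugt1a run on chromosome 1. Of these, the runs on chromosomes 9, 11 and 16 and the Gsto run hold blue points alone. The runs on chromosomes 3, 6, 10 and 13 hold points on both sides.

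The genes that feed and control these enzymes were read from 4 further lists. Of 18 tested genes for the supply of glutathione 9 fell, 5 rose and 4 did not pass (median log2 change -0.44). The shares were 27.8% higher, near the 24.1% of all genes, and 50.0% lower, against 23.4%. Slc7a11, the cystine transporter, was at 66.8 ± 2.13 CPM in activated and 627 ± 29.0 CPM in quiescent cells (log2 change -3.23, SE 0.05, adjusted p = 1.49e-17). Gclc, the catalytic subunit of the enzyme that starts glutathione synthesis, was at 78.8 ± 0.677 CPM in activated and 191 ± 3.34 CPM in quiescent cells (log2 change -1.28, SE 0.04, adjusted p = 6.36e-14). Its partner Gclm, glutathione synthetase Gss and glutathione reductase Gsr also fell, whereas 3 of 4 tested gamma-glutamyl transferase genes, which break extracellular glutathione down, rose, each averaging under 3 CPM in both states. These genes, and those named without a level per library in the rest of this account, were picked after their values were seen, apart from the pair with the smallest p in each list.

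Of 16 tested regulators of the NRF2 and AHR pathways 8 fell, 2 rose and 6 did not pass (median -0.30), or 12.5% higher and 50.0% lower against 24.1% and 23.4% of all genes. Sqstm1, the p62 adaptor that draws KEAP1 away from NRF2, was at 620 ± 12.1 CPM in activated and 1224 ± 31.2 CPM in quiescent cells (log2 change -0.98, SE 0.04, adjusted p = 1.66e-12). Mafg, a small MAF partner of NRF2, was at 162 ± 0.799 CPM in activated and 247 ± 0.859 CPM in quiescent cells (log2 change -0.61, SE 0.04, adjusted p = 2.99e-10). Nfe2l2, which codes for NRF2, fell as well (log2 change -0.58, adjusted p = 8.67e-07), as did Ahr (log2 change -0.38, adjusted p = 1.30e-05), and Keap1 did not pass (log2 change -0.10, adjusted p = 0.298).

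Of 21 tested oxidoreductases and transporters known as NRF2 targets 17 fell, 0 rose and 4 did not pass (median -0.77). Esd, an esterase that hydrolyses formylglutathione, was at 252.5 ± 4.43 CPM in activated and 685 ± 12.4 CPM in quiescent cells (log2 change -1.44, SE 0.04, adjusted p = 8.36e-15). Abcc1, which exports glutathione conjugates, was at 137 ± 5.30 CPM in activated and 355 ± 6.63 CPM in quiescent cells (log2 change -1.37, SE 0.04, adjusted p = 2.95e-14). Nqo1, a quinone reductase, was at 39.7 ± 0.569 CPM in activated and 101.5 ± 1.19 CPM in quiescent cells (log2 change -1.35, adjusted p = 5.70e-13). The list was 81.0% lower among those tested, against the background of 23.4% given above.

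Of 33 tested cytochrome P450 and other conjugating enzymes 12 fell, 10 rose and 11 did not pass (median -0.15). Both shares, 30.3% higher and 36.4% lower, were above the 24.1% and 23.4% of all genes. Some of these calls were favoured by the filter on low counts. Ces2e, Ces2g and Adh7 passed it only through their quiescent libraries and were called lower. Cyp26a1 passed it only through its activated libraries and was called higher. Cyp1b1, an AHR target that oxidises oestrogens, was at 307 ± 2.59 CPM in activated and 628 ± 16.8 CPM in quiescent cells (log2 change -1.03, SE 0.04, adjusted p = 5.70e-13). Ephx1, the microsomal epoxide hydrolase, was at 229 ± 4.82 CPM in activated and 445 ± 7.10 CPM in quiescent cells (log2 change -0.96, SE 0.04, adjusted p = 1.20e-12). Among those that rose were Cyp26a1 and Cyp26b1, which break retinoic acid down. Cyp26b1 was at 89.2 ± 4.09 CPM in activated and 41.1 ± 3.11 CPM in quiescent cells (log2 change 1.12, adjusted p = 1.27e-10), opposite in direction to Aldh1a3, which makes that acid.

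**Figure D5:**
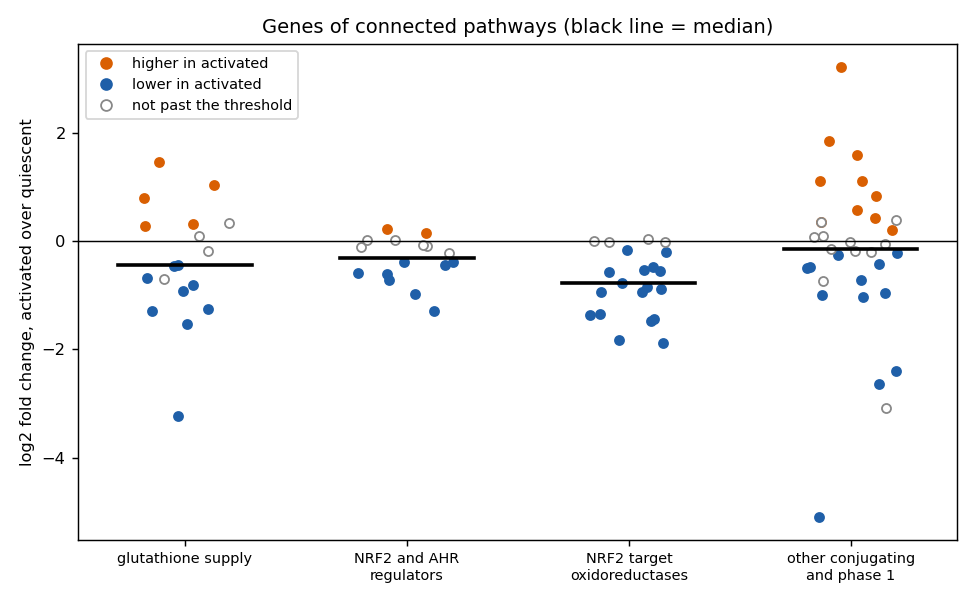
Log2 fold change, activated over quiescent, of each tested gene in the 4 lists (glutathione supply, NRF2 and AHR regulators, NRF2 target oxidoreductases, other conjugating and oxidising enzymes), with a black line at each median; orange points rose, blue points fell and open points did not pass. The medians lie at -0.44, -0.30, -0.77 and -0.15, and no NRF2 target oxidoreductase is among the points that rose.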

How the data were processed

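Counts per gene for 6 libraries were used as deposited: whole numbers that the authors did not normalise, per the file headers and the values. The submitters' processing notes list featureCounts 1.5.0-p3, HISAT2 2.0.5 and StringTie 1.3.3b and give no role for any of them. Libraries were made from Trizol RNA with a NEBNext Ultra kit, per the labels' protocols. The strand used in counting and the treatment of reads that match several genes are not given in the sources used here. Coordinates are those of GRCm38.

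All 41795 features entered one fit of activated against quiescent libraries (edgeR 4.0.16 in R 4.3.3, quasi-likelihood test, robust, TMM scaling, filterByExpr, Benjamini-Hochberg over the 15223 genes tested, threshold 0.05). The 187 unnamed loci took 0.144 to 0.239% of the counts and were kept. CPM values are counts divided by the TMM-scaled library total (17782164 to 20476073), and CPM per kb divides by the gene length in the file. Alternatives used limma 3.58.1 and DESeq2 1.42.0. The procedure was tested on simulated data. The members and gene lists were chosen with earlier results of these data known. Named were members past the threshold with a log2 change of at least 1, the most abundant member of each subfamily per length, all Aldh1a genes, and the 2 genes with the smallest p in each pathway list. Other genes are named after their values were seen. Replicate numbers were not treated as pairs. Deviations of same-numbered libraries had correlations of -0.0298 to 0.0438, which cannot settle whether the samples were paired. Counting limits cover counting error only.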

Additional observations from a re-analysis of the deposited data

How the results depend on the processing

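No member's call changed sign under any alternative. With a log2 change of at least 1 required, 3 of 51 members rose and 8 fell, against 5.94% and 3.39% of all genes. At this cut fewer genes can pass by construction. Those that rose were 1 glutathione transferase, 0 aldo-keto reductases, 1 aldehyde dehydrogenase and 1 carbonyl reductase. Those that fell were 5 glutathione transferases, 1 aldo-keto reductase, 1 aldehyde dehydrogenase and 1 carbonyl reductase. Of the 5, Gsta1 and Gsta2 passed the filter on low counts only through their quiescent libraries and were favoured to be called lower. The members' median, -0.13, was -0.12 with upper-quartile scaling, DESeq2, no filter on low counts, the replicate block or without genes of unstable counts (an alternative chosen after seeing the data), and -0.10 with limma-voom or a mean of at least 20 counts. The filter on a mean of at least 20 counts left 48 members. Gsta2, Aldh1a1 and Aldh1a7, all below the median, were not among them. The cause of the shifts in the other settings was not tested. Leaving out one library gave medians of -0.14 to -0.10 and 6 to 10 lower glutathione transferases. Across these fits 10 to 12 members rose and 18 to 24 fell, of 52 or 53 tested. Among all genes 3291 to 3787 rose and 3096 to 3572 fell, of 15560 to 15605 tested. The log2 change of Mgst1 ran from -0.11 to 0.02 (0.00 without activated replicate 2 and 0.02 without activated replicate 3, both short of the threshold), and that of Aldh1a7 from -0.43 to 0.39 (0.39 without quiescent replicate 3, short of it too). Aldh9a1 ran from -0.01 (without activated replicate 2, short of it) to 0.12 (without activated replicate 1). Cbr4 ran from -0.01 (without quiescent replicate 1) to 0.13, and Setd4 from -0.02 (without quiescent replicate 1) to 0.07, with 0.00 without activated replicate 1, none past the threshold. The cause was not tested. Whether the numbers pair the samples is not known. With the replicate block Aldh2 was lost (log2 change -0.10, adjusted p = 0.0505), leaving 11 higher and 19 lower. In that fit 3574 of all 15223 genes tested were higher and 3468 lower. Gsta2, Gsto2, Gstm7 and Akr1c13 had under 100 counts in each library, and the standard errors of their fold changes, 0.19 to 0.50, were larger than that of the abundant Aldh2, 0.04.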
